A study of Mus musculus with 9 samples.

Results

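This report describes 42 collagen genes in cell lines of the mouse mammary carcinoma 4T1. They are every gene whose symbol has the form of a collagen chain, Col followed by a type and a chain number, among the 19938 genes measured, apart from the type IV pair Col4a1 and Col4a2, and they fall into 11 fibrillar, 6 basement membrane and 25 other collagens. Membership was set by symbol alone, but the members were chosen with earlier results of these data known. The probe set of each gene was picked by its mean level. RNA was extracted from 9 cultured lines and measured on 1 array each: 4T1-T2 lines grown out of primary tumors, 4T1-LM2 lines out of metastases in the lung and 4T1-BM2 lines out of metastases in the brain, with 3 lines of each. Per the series' design text every line came from a different mouse, and all were thawed, grown and extracted side by side. The labels give no treatment, and the levels are those of the lines in culture, not of tumors. Lines are called primary, lung and brain lines and carry the mouse number of their origin. The lines of an origin share a name whose meaning is not stated, and if they descend from 1 selected population the p-values measure a smaller spread than that between independent tumors. The labels used here state neither the age nor the strain of the mice.

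Collagens are secreted or membrane-bound proteins in which 3 chains, each built of repeats that begin with glycine, wind into a triple helix. Fibrillar types such as I, III and V form the fibers that give connective tissue its strength, type IV forms the sheet-like network of basement membranes, and the remaining types decorate fibrils, anchor epithelia or span the plasma membrane. The chains are hydroxylated and folded in the endoplasmic reticulum, trimmed after secretion and cross-linked by lysyl oxidases. In mammary tumors most fibrillar collagen is made by fibroblasts, and carcinoma cells make some types themselves.

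The promoters of the 3 collagens with the largest differences between origins, Col8a1, Col7a1 and Col6a1, are printed here because Col8a1 and Col7a1 were higher in brain lines than in primary lines while the value of Col6a1 lay in the opposite direction. Of the 42 collagens, 33 had a promoter in the RefSeq table (assembly GRCm38.p6). Each sequence is the 250 bases before the gene's start, 5′ to 3′ on the gene's strand, at chr16:57754738-57754987 on the minus strand for Col8a1, chr9:108953336-108953585 on the plus strand for Col7a1 and chr10:76726045-76726294 on the minus strand for Col6a1. Capitals mark matches, on either strand, to the TATA box TATAAA, the CCAAT box CCAAT, the GC box GGGCGG, the AP-1 motif TGANTCA and the TEAD motif GGAATG.
Col8a1: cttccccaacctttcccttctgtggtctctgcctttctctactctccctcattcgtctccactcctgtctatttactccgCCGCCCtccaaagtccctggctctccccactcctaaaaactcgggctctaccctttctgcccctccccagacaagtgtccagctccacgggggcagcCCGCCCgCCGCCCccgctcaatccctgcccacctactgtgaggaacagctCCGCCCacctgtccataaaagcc
Col7a1: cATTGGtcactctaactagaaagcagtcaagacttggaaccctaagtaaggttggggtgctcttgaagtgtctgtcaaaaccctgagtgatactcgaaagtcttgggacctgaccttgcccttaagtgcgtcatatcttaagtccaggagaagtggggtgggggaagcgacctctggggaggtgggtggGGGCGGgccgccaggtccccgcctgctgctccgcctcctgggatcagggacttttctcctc
Col6a1: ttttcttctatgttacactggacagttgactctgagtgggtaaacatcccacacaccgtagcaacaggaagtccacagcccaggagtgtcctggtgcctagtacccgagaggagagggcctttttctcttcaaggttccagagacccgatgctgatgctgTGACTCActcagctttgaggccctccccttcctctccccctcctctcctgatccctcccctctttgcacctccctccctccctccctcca
The Col8a1 window held 4 GC boxes, at 170, 73, 66 and 23 bases before the start, all read on the opposite strand. The Col7a1 window held 1 GC box, 61 bases before the start, and 1 CCAAT box on the opposite strand at its far end. The Col6a1 window held 1 AP-1 motif, 90 bases before the start. No match to TATAAA or GGAATG lay in any of the 3 windows. Among 32851 promoter windows of the same length, 32.7% held the GC box, 33.8% the CCAAT box, 6.75% the AP-1 motif, 12.4% TATAAA and 12.6% GGAATG, and the motifs do not overlap one another in these 3 windows.

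The values are log2 intensities per probe set (a group of probes read as 1 gene), and since probes differ in brightness, levels are compared between lines and not between genes. The median of the probe sets with no gene symbol was 4.21, and all 42 collagens had a mean above it in each origin, which does not show that each was expressed. The array medians lay between 5.06 and 5.19. Markers of mammary carcinoma cells had a mean log2 level over 8 genes of 10.6 to 10.8 in brain lines and 9.66 to 10.2 in the others, and 2 of the 8 rose in brain against primary lines (Cdh1 and Krt14) and 2 against lung lines (Krt14 and Cldn7), where 3.13% and 1.98% of all genes passed. Krt14 passed in all 17 alternative fits of both comparisons, and Cdh1 and Cldn7 did not with the mouse number as a block (limma adjusted p = 0.0538 and 0.0594) or without most single lines (up to 0.113 and 0.152). The means of the fibroblast, endothelial, leukocyte, neural and lung epithelial marker lists lay between 4.21 and 4.83 in every line. The summed fibroblast and pericyte markers, on the log2 scale, were at 8.36 to 8.42 in brain, 8.57 to 8.60 in lung and 8.53 to 9.09 in primary lines, and 4 of the 9 markers (Dpt, Fap, Postn and Rgs5) were below 4.21 on every line. The spread of an array around the gene medians was widest in brain line 3 (interquartile range 0.178) and lung line 1 (0.164), against 0.089 to 0.126 in the other lines. In such bulk samples, fewer cells that make a collagen and less RNA per cell cannot be told apart.

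Lung line 1 stood apart in the collagens. It was the highest of the 9 lines in 27 of 42 collagens (64.3%), where it was the highest in 16.8% of all genes, and its median deviation from the gene medians was 0.20 on the log2 scale over the collagens and 0.00 over all genes. After median centring of the arrays the count was 18 of 42 (42.9%, against 9.10% of all genes), and with quantile normalization again it was 24 of 42 (57.1%, against 15.3%). No other line was the highest in more than 4 collagens. Brain line 3 was the lowest in 11, lung line 3 in 10 and primary line 1 in 9. Over all genes these lines were the lowest in 16.2%, 10.2% and 11.5%. Many collagens varied little among the other lines: in 23 of 42 (54.8%) at least 3 lines had exactly the same deposited value, as had 35.1% of all genes. RMA, the authors' summary method, can return the same value for several arrays where the probes of a gene show no common difference between them. In Col15a1, Col22a1 and Col5a2, 6 of the 9 lines shared 1 value. Values that moved by over 1.5 times without lung line 1 are therefore also given without it.

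**Figure D1:**
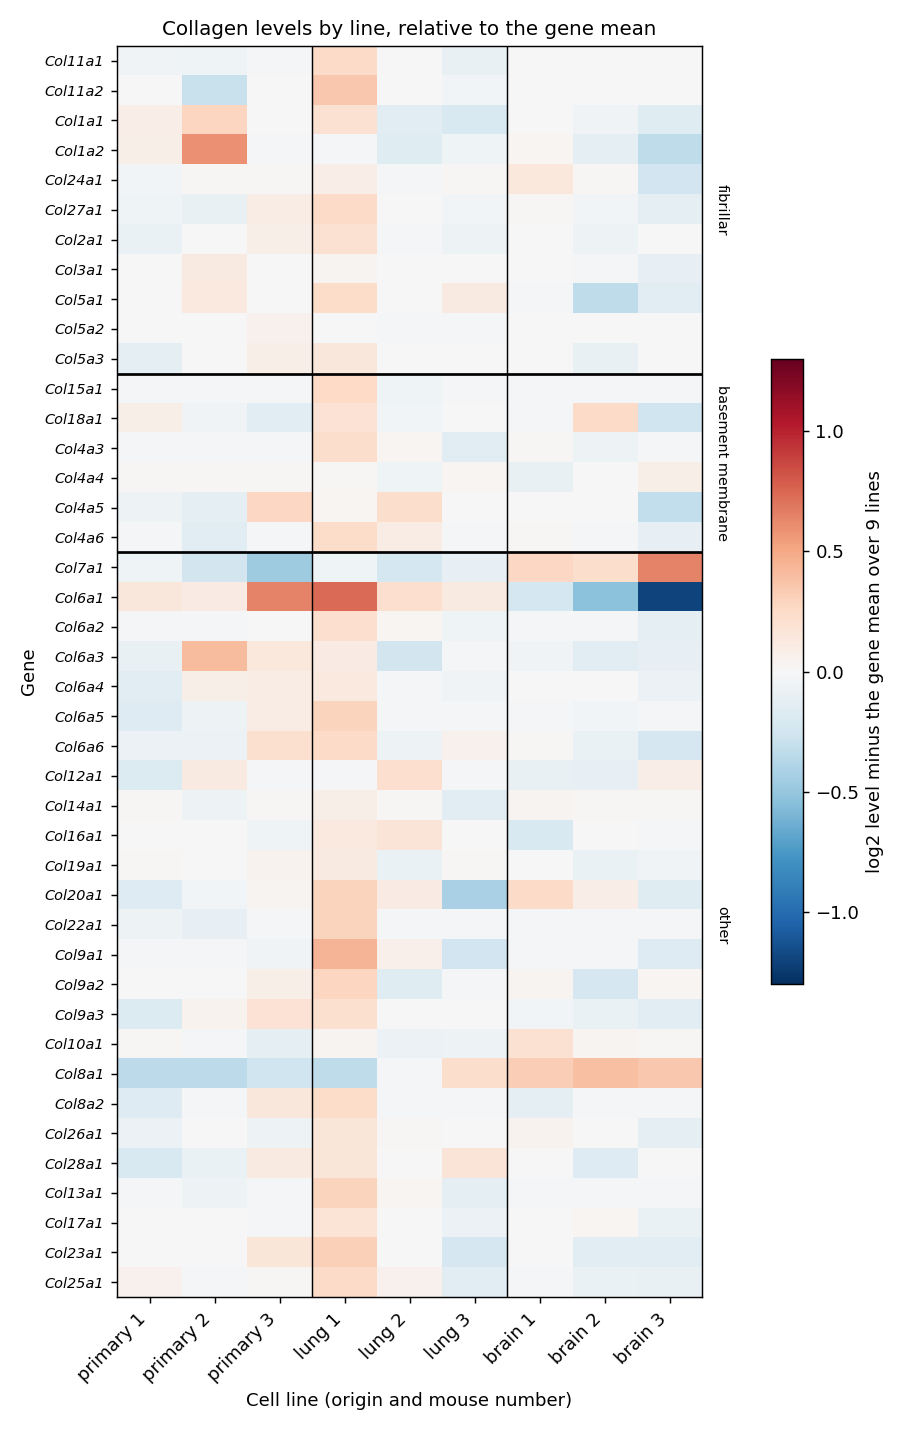
Levels of 42 collagens (rows, in the groups fibrillar, basement membrane and other) in 9 lines (columns), drawn as the log2 level minus the gene's mean over the 9 lines. Lung line 1 is the highest line in 27 genes, Col8a1 and Col7a1 are high in the 3 brain lines, and Col6a1 is low in them.

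Brain lines differed from primary lines in few collagens. A gene passed when its limma p, adjusted over all genes by the Benjamini-Hochberg method, was under 0.05. Of 42, 2 rose (4.76%), 0 fell and 40 did not pass, where 3.13% of all 19938 genes passed in either direction, 1.56% rising and 1.57% falling, so the members' share lay near that background. Both that rose, Col8a1 and Col7a1, belong to the other collagens, and none of the 11 fibrillar or 6 basement membrane members passed. At an unadjusted p under 0.05 there were 4 members (9.52%), and 15.8% of all genes. All brain lines lay on one side of all primary lines in 5 collagens (11.9%), and in 17.8% of all genes. The median log2 change of the members was -0.02, beside 0.005 over all genes. After median centring of the arrays, 313 genes in all were called higher and 199 lower, in place of 311 and 313.

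Against lung lines, 0 of 42 collagens passed in limma, beside 1.98% of all genes, of which brain lines had the higher level in 0.913% and the lower in 1.07%. At an unadjusted p under 0.05 there were 5 members (11.9%), and 14.9% of all genes, and the lines did not overlap in 6 collagens (14.3%), where 16.9% of all genes did not overlap. The median log2 change was -0.09, beside -0.01 over all genes. Brain lines had the lower mean in 35 of 42 collagens, but in 21 of 42 without lung line 1. In lung against primary lines 0 of 42 passed in limma, as did 0 of all genes, with 1 member (2.38%) and 4.74% of all genes at an unadjusted p under 0.05. Lung lines had the lower mean in 9 of 42 collagens, and in 26 without lung line 1, where they had it in 6382 of those 13975 genes as deposited. In 0 collagens did the lung and primary lines lie apart, where 8.71% of all genes did. In limma's F test, which asks for any difference among the 3 origins, 1 collagen passed, Col8a1, as did 2.36% of all genes. Brain lines are compared with both other origins, so the comparisons share samples and are given side by side.

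**Figure D2:**
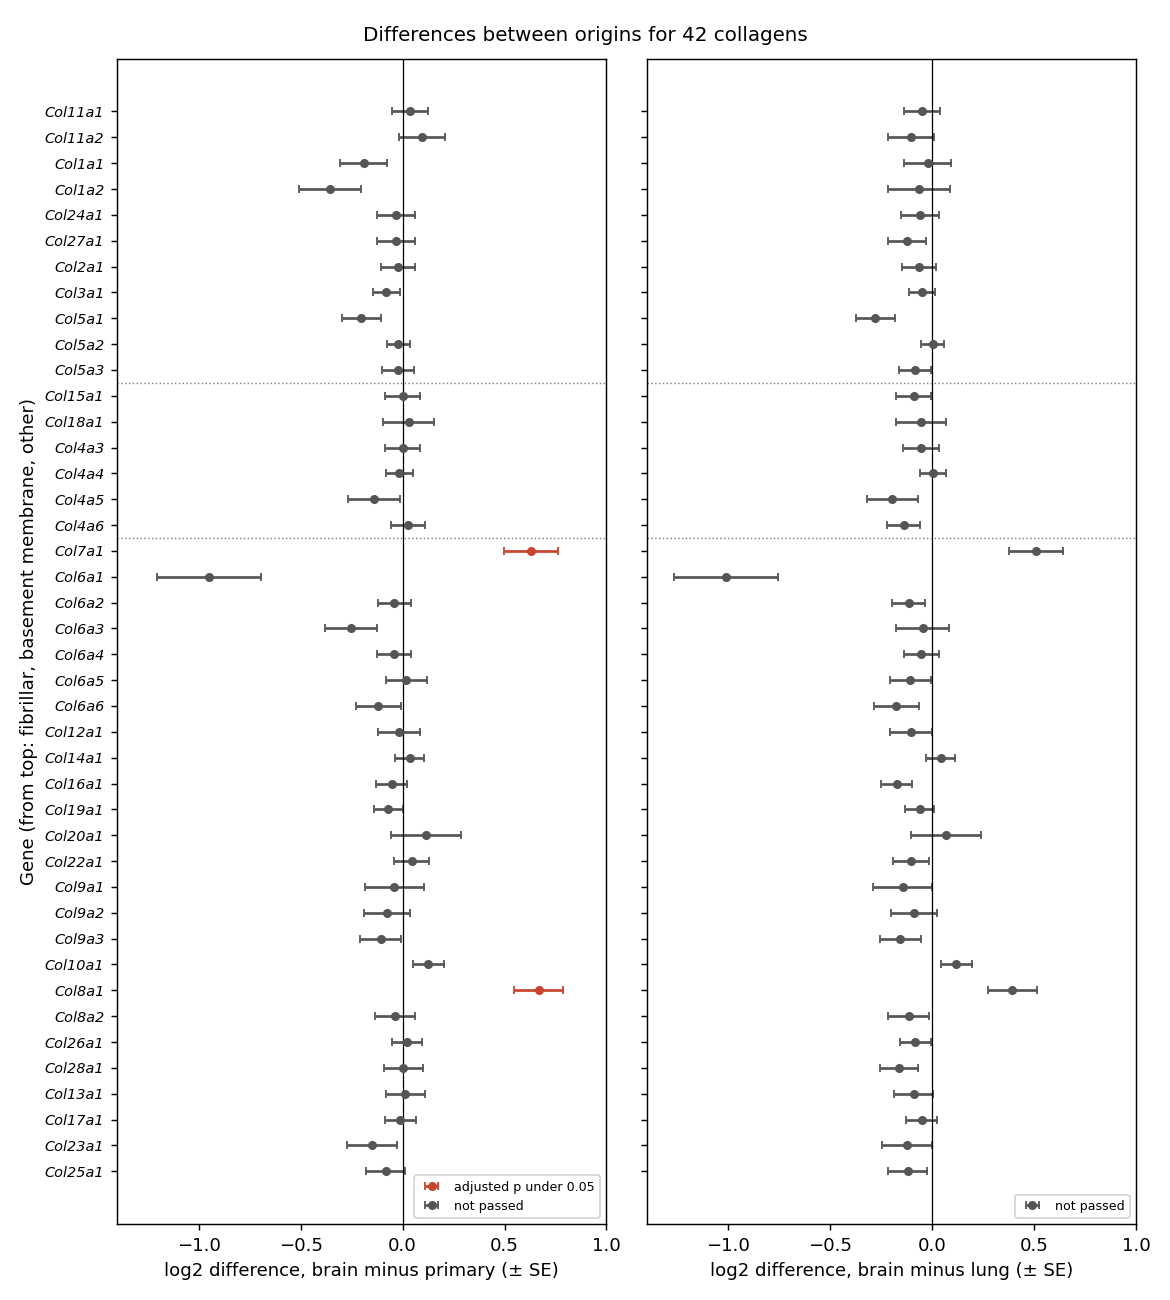
Log2 difference of each of 42 collagens (rows) between brain and primary lines (left) and between brain and lung lines (right), 3 lines per origin; points are limma estimates, bars standard errors and red marks an adjusted p under 0.05. Col8a1 (0.67) and Col7a1 (0.63) rose against primary lines, no member passed against lung lines, and Col6a1 has the lowest estimates and the widest bars.

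Among the fibrillar collagens, brain lines lay below both other origins in Col5a1, a chain of type V collagen, which helps set the diameter of type I fibrils. Its log2 level was 6.90, 6.60 and 6.79 in brain lines 1 to 3, 7.16, 6.92 and 7.04 in lung lines and 6.93, 7.05 and 6.92 in primary lines. The brain lines lay below all 6 others, and the closest values were 6.90 and 6.92. The difference was -0.20 ± 0.10 (SE, 3 lines per origin) against primary lines (limma adjusted p = 0.344) and -0.28 ± 0.10 against lung lines (adjusted p = 0.194), so it did not pass in either comparison, and without brain line 2 the first was -0.12. The partner chain Col5a2 was at 4.62 in all 3 brain lines, with all 9 lines between 4.61 and 4.68.

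Type I collagen, the main protein of bone, tendon and scar, is made of the chains of Col1a1 and Col1a2. Col1a2 was at 6.35, 6.20 and 5.99 in brain lines, 6.31, 6.16 and 6.27 in lung lines and 6.40, 6.91 and 6.30 in primary lines. Primary line 2 was the highest line, and brain and primary lines overlapped. The log2 difference between brain and primary lines was -0.36 ± 0.15 (limma adjusted p = 0.287), and -0.17 without primary line 2. Col1a1 was at 6.25, 6.22 and 6.11 in brain, 6.46, 6.11 and 6.07 in lung and 6.35, 6.54 and 6.25 in primary lines, a difference of -0.19 ± 0.12 between brain and primary lines (adjusted p = 0.497) that was -0.11 without primary line 2. Col1a1 and Col6a3 were picked with their values in view, because they share their highest line with Col1a2.

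Primary line 2 was the highest of the 9 lines in Col1a1, in Col1a2, in Col3a1 (6.12, against 5.89 to 6.03 in the others), the type III chain that accompanies type I in soft tissue, and in Col6a3 (5.71, against 5.06 to 5.44). These 4 of 42 collagens are a share near the background, since primary line 2 was the highest in 9.72% of all genes. This line was also the highest in Acta2, the smooth muscle actin of myofibroblasts, at 7.43 against 5.21 to 6.03 in the other lines, and in Bgn, the small proteoglycan biglycan, at 5.95 against 4.42 to 5.09. Of the 9 fibroblast and pericyte markers it was the highest line in 3, Acta2, Pdgfra (7.79, against 7.25 to 7.65) and Postn, where all lines lay below 4.21, and the lowest in 1, Dpt, which was also below 4.21 on every line. The part of these markers in the type I values was not tested. Neither type I chain passed between brain and primary lines in any of the 17 alternative fits.

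The other fibrillar collagens differed less between brain and primary lines. Col2a1, the cartilage type II chain, was at 6.74 ± 0.04 (SD, n = 3) in brain, 6.80 ± 0.14 in lung and 6.76 ± 0.08 in primary lines (limma F test, adjusted p = 0.923). Col11a1, a type XI chain of cartilage fibrils, was at 5.19, 5.19 and 5.20 in brain lines and 5.15, 5.14 and 5.18 in primary lines, so these lines did not overlap although the means differed by 0.04, and lung line 1 was the highest at 5.44. In the 6 fibrillar members not named singly with values for a test (Col11a2, Col24a1, Col27a1, Col3a1, Col5a2 and Col5a3), the log2 difference between brain and primary lines ran from -0.08 to 0.10 and that between brain and lung lines from -0.12 to 0.00. Between lung and primary lines the difference in these 6 ran from -0.03 to 0.20, with the highest in Col11a2. The 95% interval reached 0.13 to 0.34 to either side of the estimate in the 11 fibrillar members, and the intervals for brain against primary lines lay between -0.70 and 0.35. Over the 11, the median log2 change was -0.03 against primary and -0.06 against lung lines.

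Of the basement membrane collagens, Col18a1 is cleaved to release endostatin, a fragment that restrains blood vessel growth. It was at 8.73, 8.99 and 8.49 in brain, 8.93, 8.70 and 8.74 in lung and 8.82, 8.70 and 8.59 in primary lines. The 3 origins overlapped, with the highest and the lowest line both among the brain lines (limma F test, adjusted p = 0.939). The interval of the difference between brain and primary lines ran from -0.25 to 0.31. Col4a5, an X-linked type IV chain that in kidney pairs with those of Col4a3 and Col4a4, was at 6.20, 6.20 and 5.88 in brain, 6.23, 6.44 and 6.20 in lung and 6.14, 6.08 and 6.48 in primary lines (adjusted p = 0.726). Col15a1, which lies between basement membranes and the fibrils beneath them, was at 5.42 in all 3 brain and all 3 primary lines and at 5.72, 5.40 and 5.42 in lung lines (adjusted p = 0.820).

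The 3 remaining basement membrane genes, Col4a3, Col4a4 and Col4a6, lie beside another type IV gene in the genome, Col4a3 next to Col4a4 on chromosome 1 and Col4a6 next to Col4a5 on chromosome X. Their differences between brain and primary lines ran from -0.01 to 0.03, with 95% intervals between -0.20 and 0.21. Against lung lines they ran from -0.14 to 0.00. None of the 6 basement membrane members had lines that lay apart in any of the 3 comparisons, where 17.8%, 16.9% and 8.71% of all genes did.

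Col8a1 was the collagen with the smallest p. It encodes a chain of type VIII collagen, a short-chain type that forms open networks under endothelium and is made by vascular cells after injury. Its level was 9.35, 9.42 and 9.38 in brain lines, 8.70, 9.004 and 9.26 in lung lines and 8.68, 8.69 and 8.77 in primary lines. The brain lines lay close together above all 6 others, the primary lines lay close together below, and the lung lines reached from the primary level nearly to the brain level. Col8a1 was 1.59-fold higher in brain than in primary lines (log2 change 0.67 ± 0.12, SE, limma adjusted p = 0.0184) and passed the F test over the 3 origins (adjusted p = 0.0413). The difference was 0.39 ± 0.12 between brain and lung lines (adjusted p = 0.142), and 0.25 without lung line 1. Between lung and primary lines it was 0.27 (adjusted p = 0.975), 0.42 without lung line 1 and 0.14 without lung line 3. The call against primary lines was lost without brain line 2 (0.0637) or 3 (0.0539), without primary line 1 (0.0705) or 2 (0.0702) and with every probe set tested (0.0652). The F test was lost without any 1 line but lung lines 1 and 3 (0.0867 to 0.138), with median centring (0.0585) and with every probe set (0.134). Its partner Col8a2 was at 5.71 to 5.80 in brain and 5.65 to 5.97 in primary lines, overlapping.

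Col7a1 encodes type VII collagen, the anchoring fibril that ties the basement membrane of stratified epithelium to the tissue beneath. Its level was 7.91, 7.86 and 8.28 in brain lines, 7.58, 7.41 and 7.53 in lung lines and 7.58, 7.40 and 7.18 in primary lines. All 3 brain lines lay above all 6 others, and lung and primary lines overlapped. Col7a1 was 1.55-fold higher in brain than in primary lines (log2 change 0.63 ± 0.13, limma adjusted p = 0.0334), and the difference from lung lines was 0.51 ± 0.13 (adjusted p = 0.0926). The call was lost without any 1 line except primary line 1 (0.0529 to 0.102), with every probe set tested (0.102) and with only the 6 arrays compared (0.120), while the log2 change stayed between 0.50 and 0.73 over the fits that left out 1 line. The F test gave 0.0636, and it passed with median centring (0.0426) and without the dimmest genes (0.0409). Type VII collagen is a product of basal keratinocytes. Krt14, a keratin of basal cells picked with its values in view, was also higher in brain lines. It was at 7.71, 8.23 and 8.24 against 6.80, 6.33 and 6.19 in primary lines. Most other carcinoma markers lay higher too: Cldn4, Cldn7, Cdh1, Krt7, Epcam and Krt18 differed by 1.39, 1.34, 0.90, 0.55, 0.45 and 0.07. Of these only Cdh1 passed, and Krt8 lay lower (-0.08). Col17a1, of the hemidesmosome, was at 5.16 in brain and 5.17 in primary lines. The part of the basal cells' markers in the difference of Col7a1 was not tested.

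Col6a1 had the lowest estimates of all members and did not pass. It encodes a chain of type VI collagen, which forms beaded filaments around cells together with the chains of Col6a2 and Col6a3. Its level was 7.57, 7.27 and 6.59 in brain lines, 8.53, 8.02 and 7.91 in lung lines and 7.94, 7.90 and 8.44 in primary lines. All 3 brain lines lay below all 6 others, but they spread over about as much as separated them from the rest. The difference was -0.95 ± 0.26 against primary lines (limma adjusted p = 0.0835) and -1.01 ± 0.26 against lung lines (adjusted p = 0.0867), with 95% intervals of -1.52 to -0.38 and -1.58 to -0.44. Neither comparison passed in any of the 17 alternative fits, in which the adjusted p ran from 0.0527 to 0.239 and from 0.0557 to 0.234. Col6a2, which lies next to Col6a1 on chromosome 10, was at 6.17, 6.17 and 6.06 in brain and 6.17, 6.17 and 6.18 in primary lines. Col6a3 was at 5.25, 5.16 and 5.19 in brain, 5.40, 5.06 and 5.27 in lung and 5.20, 5.71 and 5.44 in primary lines, a difference of -0.25 ± 0.13 between brain and primary lines (adjusted p = 0.395) that was -0.12 without primary line 2. In both partner chains the brain lines overlapped with the lung and the primary lines, and whether their differences departed from that of Col6a1 was not tested.

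**Figure D3:**
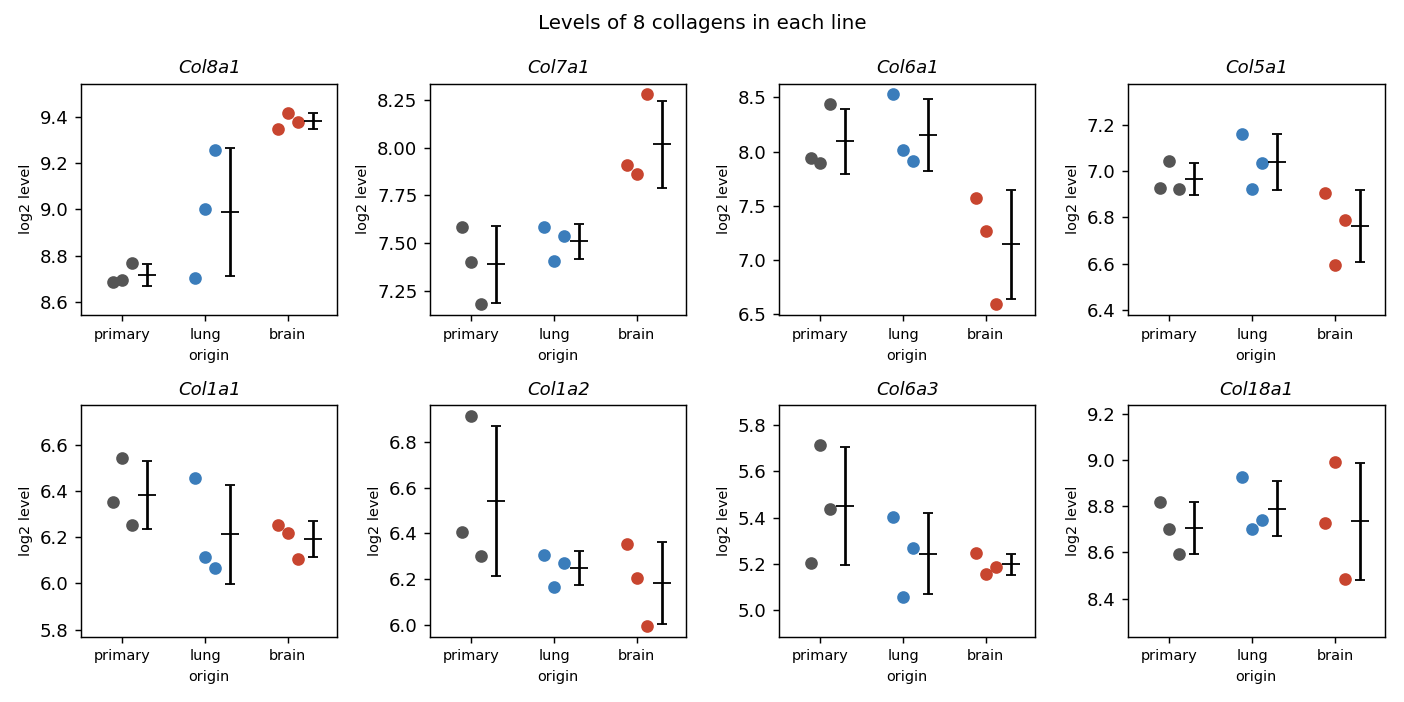
Log2 level of 8 collagens (panels) in each line by origin; points are lines 1 to 3 from left to right, and the bar beside them is the mean with its SD (n = 3). Brain lines lie apart from the other 6 lines in Col8a1, Col7a1, Col6a1 and Col5a1 and overlap with them in Col1a1, Col1a2, Col6a3 and Col18a1.

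Of the fibril-associated collagens, Col16a1, which sits on fibrils of skin and cartilage, was at 7.24, 7.42 and 7.41 in brain, 7.56, 7.60 and 7.42 in lung and 7.42, 7.42 and 7.38 in primary lines. The brain and lung lines lay apart narrowly, with 7.424 in brain line 2 and 7.425 in lung line 3, and the difference was -0.17 ± 0.08 (limma adjusted p = 0.328) and -0.11 without brain line 1. Col9a3, a type IX chain of cartilage, was at 6.57, 6.52 and 6.47 in brain and 6.82, 6.61 and 6.61 in lung lines, a difference of -0.16 ± 0.10 (adjusted p = 0.542) that was -0.085 without lung line 1. The other 7 fibril-associated members differed by -0.08 to 0.12 between brain and primary and by -0.14 to 0.07 between brain and lung lines.

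The remaining members of the other group showed differences of like size. The 4 type VI genes outside the naming rule other than Col6a3, which are Col6a2, Col6a4, Col6a5 and Col6a6, differed by -0.12 to 0.02 between brain and primary lines. For Col6a5 and Col6a6 a second, dimmer probe set was read, and it did not pass either, with log2 differences of -0.07 and -0.10 between brain and primary lines. The 4 transmembrane collagens, among them Col17a1 of the hemidesmosome, differed by -0.15 to 0.01, and Col26a1 and Col28a1 by 0.02 and 0.00. Col10a1, the type X chain of growing cartilage, differed by 0.13 (adjusted p = 0.494). Outside the naming rule, and apart from Col1a1 and Col6a3, there were 28 members. They include Col10a1, Col8a2, Col3a1, Col5a2 and Col6a2, for which values are given above. Over these 28 the difference ran from -0.15 to 0.13 against primary and from -0.18 to 0.12 against lung lines. The smallest limma adjusted p was 0.494, that of Col10a1, against primary lines and 0.493 against lung lines. The 95% intervals of these 28 lay between -0.42 and 0.50 against primary lines.

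The genes that modify collagen chains inside the cell went both ways between brain and primary lines. Of 19, 2 rose, 1 fell and 16 did not pass, where 3.13% of all genes passed. P3h2, a prolyl 3-hydroxylase that acts on type IV and fibrillar chains, was at 7.01, 7.20 and 7.22 in brain, 6.50, 6.88 and 6.91 in lung and 6.19, 6.67 and 6.13 in primary lines. It rose by 0.81 ± 0.15 on the log2 scale against primary lines (limma adjusted p = 0.0233), and the lung lines overlapped with the primary lines. P4ha2, a catalytic chain of the prolyl 4-hydroxylase that stabilizes the triple helix, was at 6.84, 6.92 and 7.41 in brain, 6.73, 6.74 and 6.79 in lung and 6.22, 6.65 and 6.30 in primary lines, and rose by 0.66 ± 0.15 (adjusted p = 0.0495). P3h4, a partner of the lysyl hydroxylase complex, was at 5.83, 5.39 and 5.25 in brain, 6.09, 6.01 and 6.11 in lung and 6.26, 6.19 and 6.16 in primary lines. It fell by 0.71 ± 0.13 (adjusted p = 0.0183). The call of P3h2 was lost without brain line 2 or 3 or primary line 1 or 3 (adjusted p 0.0747 to 0.0881), that of P4ha2 without any line but brain line 1 and primary line 2 (0.0764 to 0.160), and that of P3h4 without brain line 2 or any primary line (0.0519 to 0.0718). All 3 were also lost with every probe set tested (0.0660 to 0.134) and with only the 6 arrays compared (0.0726 to 0.163).

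Against lung lines 0 of these 19 genes passed in limma, and P3h4 differed by -0.58 ± 0.13 (adjusted p = 0.0528). With the mouse number as a block, P3h4 passed (adjusted p = 0.0369), and it also passed in 5 other alternatives. The block groups lines of equal number in all origins, although the design text names different mice for all lines. Serpinh1, the collagen chaperone HSP47, was at 8.35, 8.49 and 8.41 in brain and 8.42, 8.49 and 8.97 in primary lines, and the prolyl hydroxylase subunit P4hb, which is also a general disulfide isomerase, was at 11.5 to 11.7 in all 9 lines.

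Genes of cross-linking enzymes differed in both directions. Of 11 measured genes of extracellular processing and cross-linking, 1 rose, 1 fell and 9 did not pass, in brain against primary and equally against lung lines, where 3.13% and 1.98% of all genes passed. Loxl4 and Loxl3 encode lysyl oxidase-like enzymes that oxidize lysines of collagen and elastin. Loxl4 was at 9.04, 9.36 and 8.99 in brain, 8.10, 8.15 and 8.30 in lung and 8.26, 8.12 and 8.11 in primary lines. It was 1.96-fold higher in brain than in primary lines (log2 change 0.97 ± 0.11, limma adjusted p = 0.0025) and 1.93-fold higher than in lung lines (0.95 ± 0.11, adjusted p = 0.00499). Loxl3 was at 8.40, 8.36 and 7.83 in brain, 9.33, 9.30 and 9.39 in lung and 9.47, 9.39 and 9.79 in primary lines. It was 2.56-fold lower in brain than in primary lines (log2 change -1.35 ± 0.15, adjusted p = 0.00269) and 2.21-fold lower than in lung lines (-1.15 ± 0.15, adjusted p = 0.00858). In both genes the 3 brain lines lay apart from the other 6, and both calls passed in all 17 alternative fits in each comparison, with an adjusted p of at most 0.0457. Lox, the founding member of the family, had a level between 3.63 and 3.83 on every line, below the median of unnamed probe sets. Bmp1, the protease that removes the C-terminal propeptide of fibrillar collagens, was at 10.5 to 10.8 in all 9 lines (F test, adjusted p = 0.813).

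**Figure D4:**
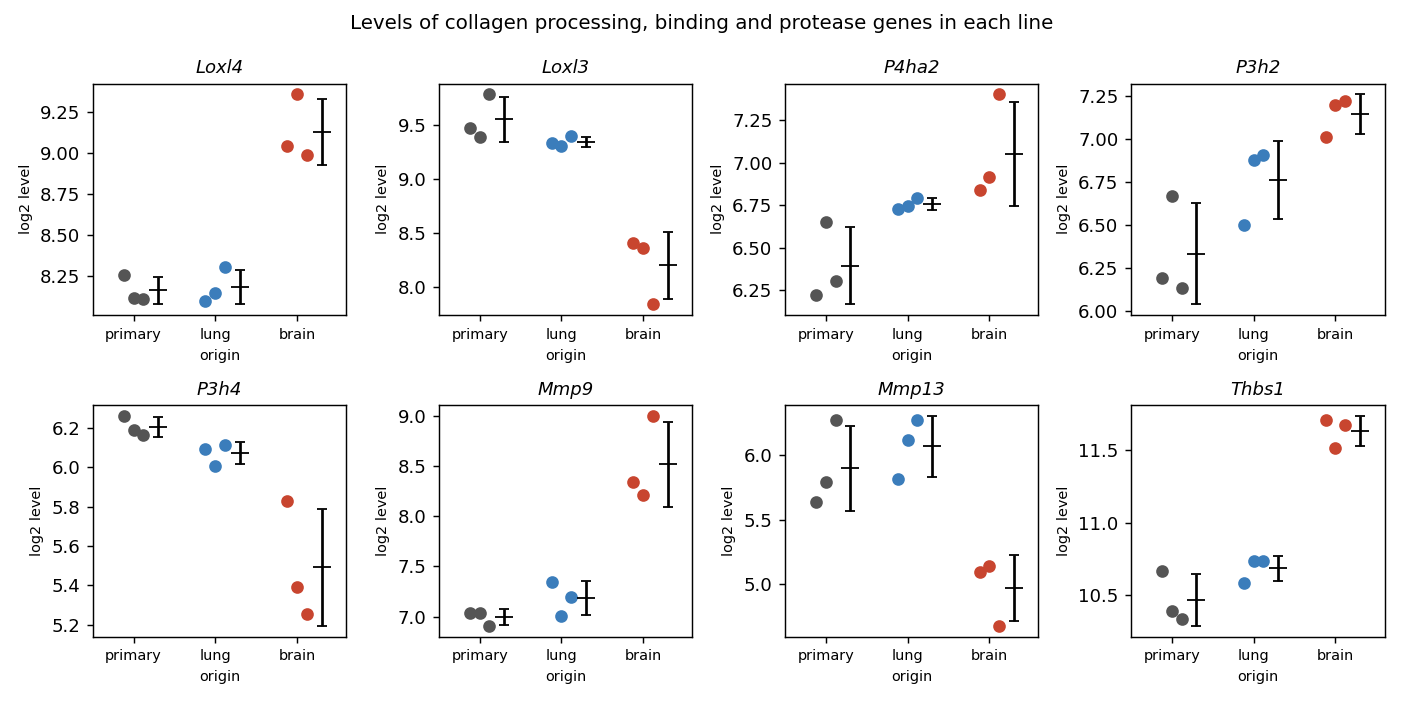
Log2 level of 8 genes that process, bind or cleave collagen (panels) in each line by origin; points are lines 1 to 3 from left to right, and the bar beside them is the mean with its SD (n = 3). Brain lines are above the other 6 lines in Loxl4, Mmp9, Thbs1, P3h2 and, narrowly, P4ha2, and below them in Loxl3, P3h4 and Mmp13.

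Collagen receptors did not pass in either comparison: 0 of 10 in limma, against a background of 3.13% and 1.98%. The largest differences in this list were those of Itga1, the alpha subunit of an integrin that binds collagens I and IV, at 7.38, 6.81 and 6.52 in brain, 7.45, 7.93 and 7.48 in lung and 7.79, 7.65 and 7.45 in primary lines. The difference was -0.73 ± 0.21 against primary (adjusted p = 0.102) and -0.72 ± 0.21 against lung lines (adjusted p = 0.126), and without brain line 1 it passed in both (0.0291 and 0.0397). Adgrg1, a receptor for type III collagen, differed by -0.45 ± 0.15 and -0.51 ± 0.15 (adjusted p = 0.155 and 0.126), and without primary line 3 it passed in both (0.0318 and 0.0407).

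Of 13 proteoglycans and glycoproteins that bind fibrils, 1 rose in brain lines against each other origin, where 3.13% (primary) and 1.98% (lung) of all genes passed, and 6 were below 4.21 on every line. The one that rose was Thbs1, the matrix glycoprotein thrombospondin 1, at 11.7, 11.5 and 11.7 in brain, 10.6, 10.7 and 10.7 in lung and 10.7, 10.4 and 10.3 in primary lines (1.16 ± 0.10 against primary, adjusted p = 0.00116). Among 7 collagenases and gelatinases 1 rose and 3 fell against primary lines, and 1 rose and 2 fell against lung lines, beside 3.13% and 1.98% of all genes. The gelatinase Mmp9, which cleaves denatured collagen and type IV, rose in both comparisons (1.52 ± 0.18, adjusted p = 0.00336, and 1.33 ± 0.18, adjusted p = 0.00899). The collagenase Mmp13, which cleaves intact fibrils, was at 5.09, 5.14 and 4.67 in brain, 5.81, 6.12 and 6.28 in lung and 5.64, 5.79 and 6.27 in primary lines, and fell in both (-0.93 ± 0.19, adjusted p = 0.0294, and -1.10 ± 0.19, adjusted p = 0.0214). Mmp1a, another collagenase, fell against primary lines (-1.31 ± 0.26, adjusted p = 0.0282), with 4.53, 4.58 and 4.20 in brain and 5.49, 6.35 and 5.41 in primary lines. Mmp1b had a mean of 3.91 in brain lines, below 4.21, and of 4.74 in primary and 4.59 in lung lines (adjusted p = 0.0147 and 0.0425), and as a close paralog of Mmp1a it may share probes with it. Its call against primary lines was lost without brain line 3 (0.0521) and with only the 6 arrays (0.0772), and that against lung lines without any line but primary lines 2 and 3 (0.0710 to 0.154) and with median centring (0.0532). The calls of Mmp1a and Mmp13 against primary lines were lost without any brain line, lung line 2 or primary line 2, that of Mmp1a also without primary line 1 and that of Mmp13 also without primary line 3 (up to 0.0905 and 0.0843), and with only the 6 arrays compared (0.0817 and 0.0978). Those of Mmp13 and Mmp9 against lung lines were lost without lung line 2 (0.0956 and 0.0528) and with only the 6 arrays (0.0507 and 0.0526), and that of Mmp13 also without brain line 3 (0.0640) or lung line 3 (0.0797). With every probe set tested, the calls of Mmp1a, Mmp13 and Mmp1b against primary lines were lost (limma adjusted p 0.0974, 0.0979 and 0.05755). Those of Mmp13 and Mmp1b against lung lines were lost there too (0.0806 and 0.1325).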

How the data were processed

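Each of the 9 lines was hybridised to 1 array. The deposited values are log2 intensities that the authors obtained with RMA, per the submitters' processing notes. RMA subtracts background, forces the arrays onto a common distribution and summarises the probes of a probe set, so that a shift of every gene in a line would be largely removed. The log base was read from the range of the values, and no software version or genome build is named in the labels. Of 35557 probe sets, 21789 had exactly 1 gene symbol in the platform's annotation, 1621 had several and 12147 had none. Only the first kind was used, and each symbol kept the probe set with the highest mean, which left 19938 genes. All 44 collagen symbols of the reference gene table were measured, and without Col4a1 and Col4a2 there were 42.

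Genes were tested two-sided with limma 3.58.1 in R 4.3.3 (lmFit, eBayes) in a single model with a mean for each origin (6 residual and 3.72 prior degrees of freedom). P-values were adjusted over all 19938 genes by the Benjamini-Hochberg method, with a threshold of 0.05. Errors after ± are standard errors unless marked SD, and intervals are at 95%. Precision is limited by the number of arrays. The fit was also run on simulated data, with changes larger than those of Col8a1 and Col7a1. That run does not show how often changes of the collagens' size would be found.

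The members and lists were chosen with earlier results of these data known. Named with values were each collagen that passed, each whose brain lines lay apart from primary or from lung lines, the 3 brightest of each group, and from each related list the genes that passed (up to 4 per comparison) or else the pair with the largest differences. Every other gene named, such as Acta2, Bgn, Bmp1, Col10a1, Col8a2, Krt14, Lox and Serpinh1, was picked with its values in view. The related lists held 63 genes, of which Adamts2, Loxl2 and Gp6 are not analysed here.

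Mice are numbered 1 to 3 in each origin. Over all genes, the deviations of same-numbered brain and lung lines from their group means correlated at 0.28, 0.13 and 0.24, each above 0.1, and a fit with the number as a block is therefore given where it changes a call. This pairing was read from the data, since the design text names different mice for all lines. Other fits repeated the quantile step, set all array medians equal, dropped the dimmest genes, let the prior follow intensity, weighted arrays, left out each line, kept all probe sets or used only the 6 arrays compared.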

Additional observations from a re-analysis of the deposited data

How the results depend on the processing

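Over 56 pairs of a named gene and a comparison and 936 values under alternatives, 823 kept their side of the threshold, 101 lost it, 12 passed only there and 0 changed sign. Only pairs that passed in the main fit could lose the threshold, so 101 of 936 is not the share of calls lost. Against primary lines, the call of Col8a1 was lost in 5 of 17 alternatives and that of Col7a1 in 10. The F test has no sign, so its pairs could not change it. The count of collagens that passed in brain against primary lines, 2, was 0 to 1 when a line was left out, 0 with every probe set as its own feature and 1 with only the 6 arrays compared. In the F test over 3 origins the count, 1, was 0 to 1 when a line was left out, 0 with every probe set and 2 without the dimmest genes. Against lung lines, and in lung against primary lines, it was 0 under all 17 alternatives. The counts over all genes moved as well. For brain against primary lines 624 became 273 to 556 when a line was left out, 246 with every probe set and 197 with only 6 arrays. For brain against lung lines 395 became 69 to 417, 92 and 107, and for the F test 470 became 160 to 370 and, with every probe set, 92. With every probe set more tests are adjusted for, and with 6 arrays fewer samples estimate the spread.

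With the replicate block, 2 collagens passed in brain against primary, 0 against lung and 1 in the F test, and 839, 566 and 604 genes in all. Among these 56 pairs the block changed the calls of P3h4 and Cldn7 against lung lines and of Cdh1 against primary lines. Same-numbered brain and primary lines correlated at -0.04 to 0.07, within the range of differently numbered ones (-0.115 to 0.098). Same-numbered lung and primary lines correlated at 0.22, 0.08 and 0.01. What the number stands for across origins is not stated. Which way most collagens lay depended on scaling and on lung line 1, alternatives added after the data were seen. In brain against primary lines 27 of 42 were lower as deposited, 15 with quantile normalization again and 14 with median centring. In brain against lung lines 35 were lower, and 21 without lung line 1. In lung against primary lines 9 were lower, 26 without lung line 1 and 14 without primary line 1. Centring moved the median log2 change of all genes from 0.005 to 0.049 in brain against primary lines, where the collagens' median was -0.02 as deposited. That shift is not small beside the differences of most collagens. No signal over local background is given for these arrays, so dim collagens cannot be told from unexpressed ones.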
